A study of Danio rerio with 2 samples.

Results

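The genes of fatty acid oxidation were followed in whole zebrafish larvae that had been swim-trained or left untrained. The list held 35 genes for the uptake and activation of fatty acids, the carnitine shuttle, the enzymes of the mitochondrion and the peroxisome, electron transfer and the regulators of the pathway. A gene was found on the array through the RefSeq accession of its probes, and lpl was found under its current symbol lpla. Of the 35 genes, 29 had at least 1 probe, and all 29 of these were measured, out of 11121 measured genes among 12900 with a probe. The 6 genes with no paired probe, cpt1ab, cpt1b, eci1, ppargc1b, pparda and pdk2a, were not analysed here.

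Fatty acids enter cells through surface proteins, are bound by carriers in the cytosol and are joined to coenzyme A by acyl-CoA synthetases. Long chains cross into the mitochondrion as carnitine esters, and a repeating cycle of dehydrogenation, hydration, another dehydrogenation and thiolytic cleavage then shortens them. The electrons taken off at the first step pass through the electron transfer flavoprotein to the respiratory chain, while peroxisomes begin the breakdown of very long and branched chains. In vertebrate muscle and heart the pathway fuels sustained work, and the nuclear receptors of the PPAR family switch on many of its genes.

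Trained larvae were wild type zebrafish with Wageningen wild type X Tubingen wildtype as their background, given as Zod2, which swam in daily sessions of 3 hours between 5 and 10 days after fertilisation and were taken at 10 days. Control larvae were of the same background and the same age and were not trained. RNA was extracted fish by fish, 400 ng from each of 10 larvae was pooled per condition, and 100 ng of pooled RNA went into each labelling. Both pools were then hybridised together on each of 2 Agilent arrays, with trained RNA in Cy5 beside control RNA in Cy3 on array 1, and trained RNA in Cy3 beside control RNA in Cy5 on array 2.

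Because the arrays repeat the same RNA with exchanged dyes, they form 1 replicate, no test across fish could be made, and each value below describes 2 pools. A log2 ratio is trained over control on 1 array, a mean log2 ratio averages both arrays, and a level is the normalised log2 intensity of 1 pool on 1 array. Whether the levels of the pools overlap is described gene by gene. The share of all measured genes without overlap is not given, so lack of overlap does not mark a gene as unusual. A gene passed the size rule when each array showed it at least 1.5-fold different (0.58 on the log2 scale) and in 1 direction. Each gene was read from its brightest measured probe, one well above background in both channels of both arrays. The SD between the mean log2 ratios of different probes of 1 gene was 0.124, over 6037 genes with several measured probes, and served as a yardstick. It covers the difference between probes read on the same arrays. Errors of labelling or array that the probes of a gene share, and the spread between fish, are not in it. Of all measured genes 45.1% had a mean log2 ratio beyond it, as did 41.4% of the 29 listed genes measured. In these whole-larva pools, fewer cells of a type and less RNA per cell cannot be told apart.

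Of 43603 probes, 30888 (70.8%) were measured and none was saturated. The median spot intensity, with background still in it, was 178.5 for trained and 137.5 for control RNA on array 1. On array 2 it was 136 for trained and 155.5 for control RNA. The median background was 82.5 for trained and 24.5 for control RNA on array 1, and 24 and 82 on array 2. Spots well above background made up 77.3% for trained and 84.2% for control RNA on array 1, and 81.3% and 71.3% on array 2. Of 67 marker genes of muscle, heart, liver, intestine, fat, brain and blood, 57 were measured, with at least 4 for each tissue. The number of arrays limits the precision. Across all measured genes the log2 ratios of array 1 and array 2 had a Pearson correlation of -0.04 (n = 11121 genes that share the same 2 arrays). The series' design text repeats a single dye orientation, whereas the titles, the channel labels and the labelling protocol give exchanged dyes. The labels were followed here, and without the exchange the sign of every array 2 ratio below would turn.

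No fatty acid oxidation gene passed the size rule: 0 of 29 were higher in the trained pool, where 0.638% of all genes passed, and 0 of 29 were lower, where 0.054% passed. The median of the mean log2 ratios was 0.08 over the 29 genes, with a range of -0.38 to 0.40, against 0.00 over all measured genes. On single arrays the median of the 29 genes was -0.02 on array 1 and 0.16 on array 2, while that of all genes was 0.00 and 0.02. The middle 50% of the 29 means ran between -0.06 and 0.17, and that of all genes between -0.11 and 0.11.

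On both arrays 10 of the 29 genes (34.5%) were higher in the trained pool, against 24.3% of all measured genes. These were acads, etfa, etfdh, acox3, acaa1, pparaa, pdk4, lpl, cd36 and acsl1b. In hadhaa and fabp3, 2 genes (6.9%), the trained pool was lower on each array, against 22.1% of all genes. The other 17 (58.6%) had opposite signs on the arrays, close to the 53.6% of all genes. With a mean log2 ratio also beyond the SD between probes, 7 of the 29 genes (24.1%) were higher, against 17.5% of all genes, and 1 of the 29 (3.45%), hadhaa, was lower, against 15.2% of all genes. The counts and shares are descriptions of the list and carry no test.

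**Figure D1:**
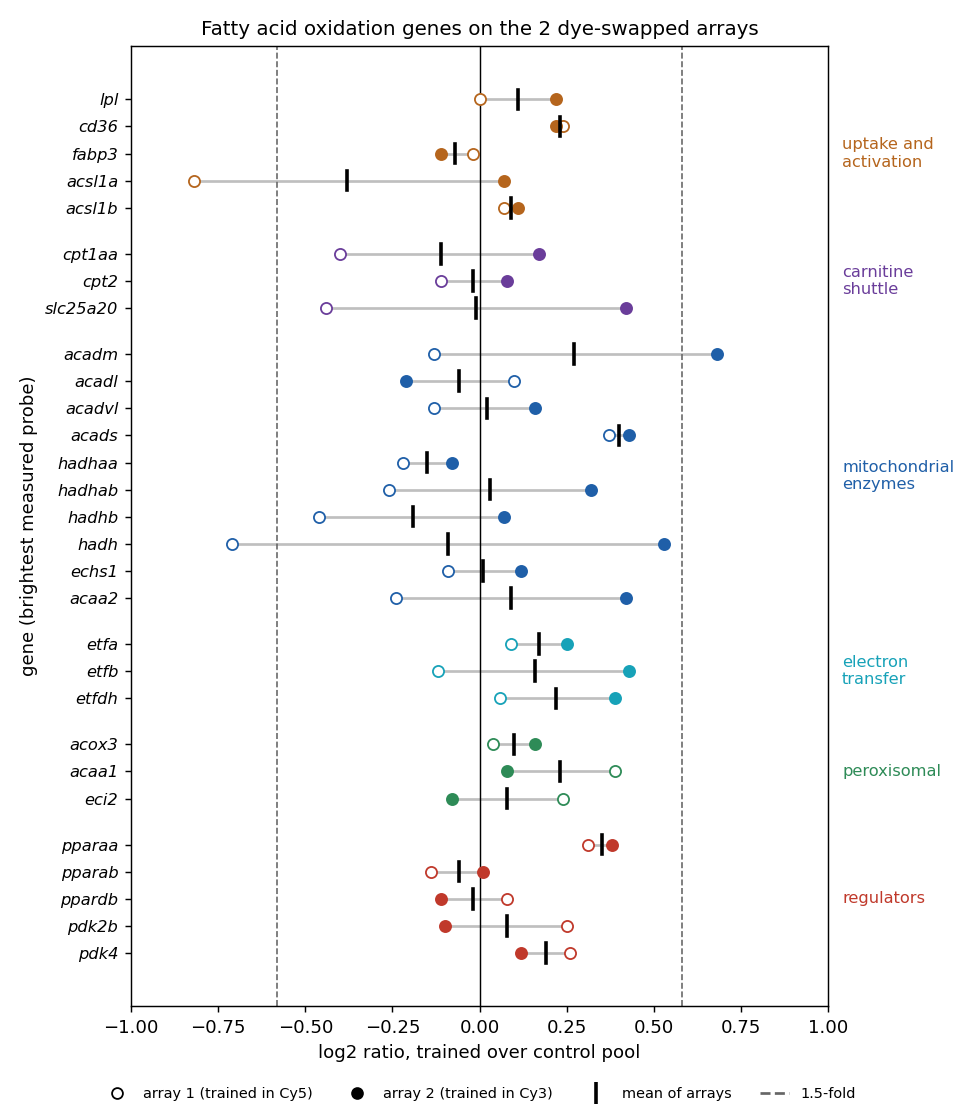
Log2 ratio of trained over control (horizontal axis) for each of the 29 measured genes, grouped by role, with the value of array 1, the value of array 2 and their mean drawn as separate symbols. The means lie between -0.38 (acsl1a) and 0.40 (acads), and for 17 genes the values of the arrays fall on opposite sides of 0.

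The short-chain acyl-CoA dehydrogenase acads, which takes the first step on the shortest fatty acids, had the highest mean ratio of the 29 genes. Its levels were 11.36 and 11.19 in the trained pool and 10.99 and 10.76 in the control pool, on array 1 and array 2. Both trained levels lay above both control levels. The log2 ratios were 0.37 and 0.43 with a mean of 0.40, or 1.32-fold higher in the trained pool.

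A second acads probe gave much the same picture. It had levels of 10.09 and 10.24 in the trained pool against 9.93 and 9.67 in the control pool, which again did not overlap, and its log2 ratios were 0.16 and 0.57 with a mean of 0.37. Over the 8 alternative processings that used both arrays, the mean ratio of acads stayed between 0.33 and 0.46.

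The brightest probes of the other acyl-CoA dehydrogenases, which act on longer chains, had opposite signs on the arrays. For acadm, the medium-chain enzyme, the levels were 10.57 and 10.89 in the trained pool and 10.70 and 10.21 in the control pool, so the pools overlapped. The acadm log2 ratios of -0.13 on array 1 and 0.68 on array 2 had opposite signs, its other probe had a mean of 0.04, and the mean over its probes was 0.16. For the long-chain enzyme acadl the log2 ratios were 0.10 and -0.21, while its other probe was higher on both arrays with 0.04 and 0.18, and the deposited ratios turned the mean of -0.06 to 0.03. The very-long-chain enzyme acadvl had -0.13 and 0.16, the means of its 3 probes ran between -0.06 and 0.25, and the deposited ratios gave a mean of 0.18.

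The mitochondrial trifunctional protein carries out the later steps on long chains, with alpha subunits from hadhaa and hadhab and a beta subunit from hadhb. The levels of hadhaa were 11.39 and 11.52 in the trained pool and 11.61 on each array in the control pool, without overlap. The log2 ratios of hadhaa were -0.22 and -0.08 with a mean of -0.15. Its 4 probes had means between -0.15 and 0.02 and averaged -0.06, so the lower value was not shared by all of them. For hadhab the log2 ratios were -0.26 and 0.32 on the brightest probe. Its other probes were lower on both arrays, with -0.07 and -0.02 on 1 and -0.30 and -0.05 on the other, and the hadhab mean of 0.03 turned to -0.06 over its probes and to -0.07 under the deposited ratios.

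The beta subunit hadhb had levels of 13.22 and 13.57 in the trained pool and 13.67 and 13.50 in the control pool, which overlapped. On array 1 its log2 ratio was -0.46 and on array 2 it was 0.07, with a mean of -0.19. The other hadhb probes had means of -0.01 and -0.00, and the deposited ratios gave -0.04, so the lower value belonged to the brightest probe.

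The remaining mitochondrial enzymes act on shorter intermediates. The gene hadh, for the hydroxyacyl-CoA dehydrogenase, had levels of 12.89 and 13.55 in the trained pool and 13.60 and 13.01 in the control pool, so the order of the pools turned between the arrays. Its log2 ratios, -0.71 and 0.53, lay the farthest apart of the 29 genes. The other hadh probes had means of 0.17 and 0.05, so the brightest probe alone had a mean below 0. The hydratase echs1 had log2 ratios of -0.09 and 0.12. The thiolase acaa2, which releases acetyl-CoA, had -0.24 and 0.42, and all 4 of its probes were negative on array 1 and positive on array 2.

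**Figure D2:**
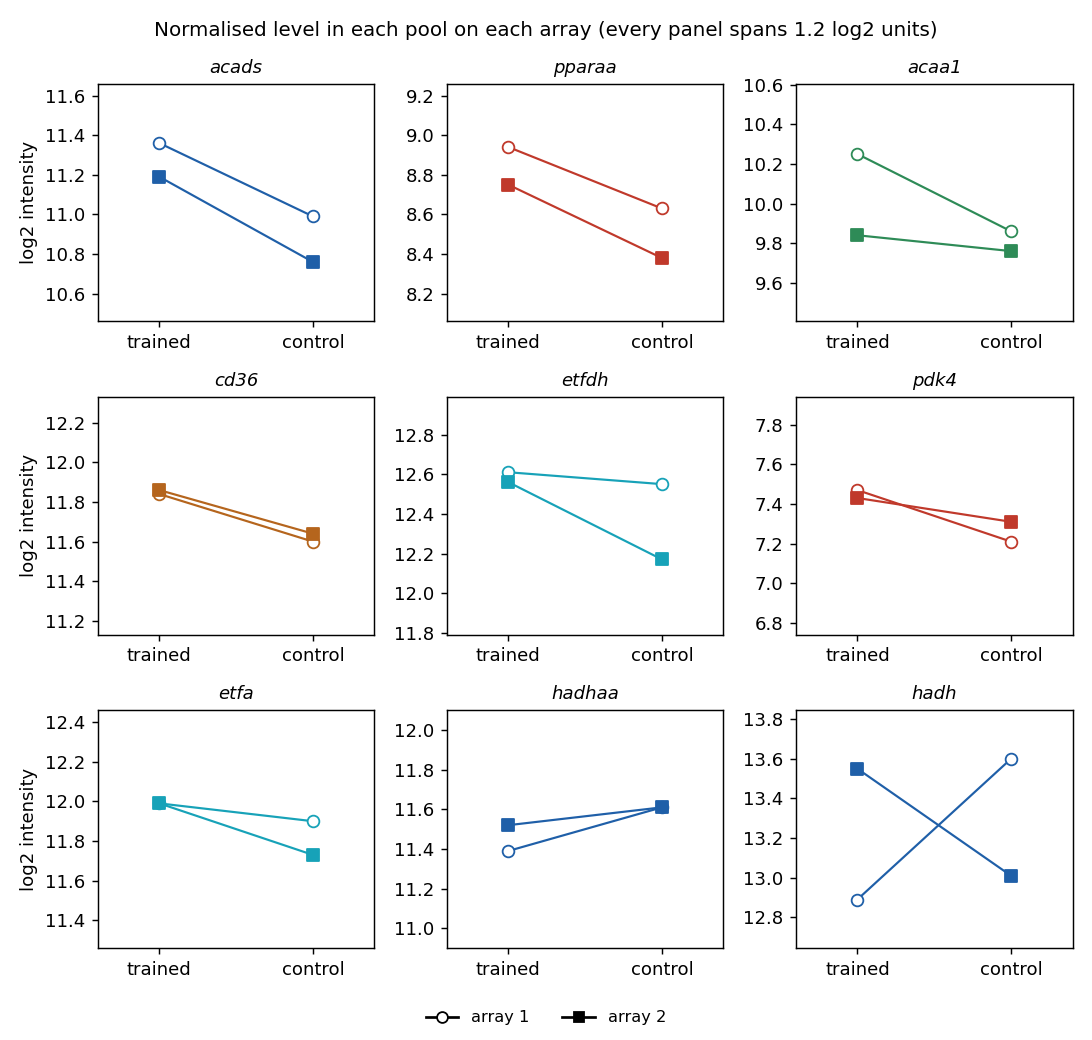
Normalised log2 intensity (vertical axis) of the trained pool, at left in each panel, and the control pool, at right, for 9 genes of fatty acid oxidation on both arrays; lines join the pools of 1 array. Shown are the 7 higher and 1 lower gene of 1 sign on both arrays with a mean beyond the SD between probes. The other gene is hadh, with the largest gap between arrays. The choice favours agreement of the arrays, as 17 of the 29 genes had opposite signs. For acads, pparaa, cd36, etfdh, pdk4 and etfa both trained levels lie above both control levels. The choice of genes by sign favours such separation, and its share among all measured genes is not given. For hadhaa both lie below, the acaa1 pools overlap, and for hadh the lines of the arrays cross.

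The electron transfer genes had mean ratios above 0 in 3 of 3 cases, against 49.3% of all measured genes. The dehydrogenase etfdh passes electrons from the flavoprotein to ubiquinone. Its levels were 12.61 and 12.56 in the trained pool and 12.55 and 12.17 in the control pool, and on its single probe both trained levels lay above both control levels, though barely so for 1 pair. The log2 ratios were 0.06 and 0.39 with a mean of 0.22, or 1.17-fold, and the deposited ratios gave 0.12.

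The flavoprotein subunit etfa had levels of 11.99 on each array in the trained pool and 11.90 and 11.73 in the control pool, without overlap. Log2 ratios of etfa were 0.09 and 0.25 on its brightest probe. Its other probes had opposite signs on the arrays, with -0.14 and 0.39 on 1 and -0.32 and 0.15 on the other. The means of its 3 probes ran between -0.08 and 0.17 and averaged 0.07. The partner subunit etfb had log2 ratios of -0.12 and 0.43 on its brightest probe and 0.19 and 0.30 on its other probe. Of the 3 genes, etfa and etfdh were therefore higher on both arrays by their brightest probe and etfb was not. Over all measured probes, 1 of 3 for etfa and 1 of 2 for etfb were higher on both arrays.

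In the carnitine shuttle 3 of 3 measured genes had opposite signs on the arrays by their brightest probe, against 53.6% of all genes. For cpt1aa, a carnitine palmitoyltransferase of the outer membrane where entry is controlled, the levels were 7.05 and 7.52 in the trained pool and 7.45 and 7.35 in the control pool, which overlapped. The log2 ratios were -0.40 and 0.17. The translocase slc25a20, which exchanges carnitine esters across the inner membrane, had log2 ratios of -0.44 and 0.42 on its brightest probe, and its other probe ran the other way with 0.34 and -0.08. The inner-membrane transferase cpt2 had -0.11 and 0.08 on its brightest probe. Its other probes were higher on both arrays by small amounts, with 0.06 and 0.16 on 1 and 0.01 and 0.07 on the other, so the sign of cpt2 depends on the probe.

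Among the genes of uptake and activation, cd36 was the most even between the arrays. This membrane protein takes up long-chain fatty acids, and its levels were 11.84 and 11.86 in the trained pool and 11.60 and 11.64 in the control pool. The pools did not overlap. The log2 ratios were 0.24 and 0.22 with a mean of 0.23, or 1.18-fold, on the single cd36 probe.

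Lipoprotein lipase, encoded by lpl, frees fatty acids from circulating lipoproteins. Its levels were 9.67 and 10.03 in the trained pool and 9.67 and 9.81 in the control pool, so on array 1 the pools differed by 0.00 after rounding. The other measured lpl probe had log2 ratios of 0.29 and 0.28, above the SD between probes. The lpl mean of 0.11 became 0.22 under the deposited ratios. The cytosolic carrier fabp3 had log2 ratios of -0.02 and -0.11, a mean within the SD between probes, and median centring and the deposited ratios turned its sign.

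The 2 long-chain acyl-CoA synthetases of the list stood apart from each other. For acsl1a the levels were 8.58 and 9.24 in the trained pool and 9.41 and 9.17 in the control pool, which overlapped. Its log2 ratio was -0.82 on array 1 against 0.07 on array 2, and its mean of -0.38 was the lowest of the 29 genes and the only one outside the central 95% of all genes (-0.33 to 0.44). All 3 measured acsl1a probes had means below 0, between -0.38 and -0.07, and the mean over its probes was -0.20. For acsl1b the log2 ratios were 0.07 and 0.11, within the SD between probes.

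**Figure D3:**
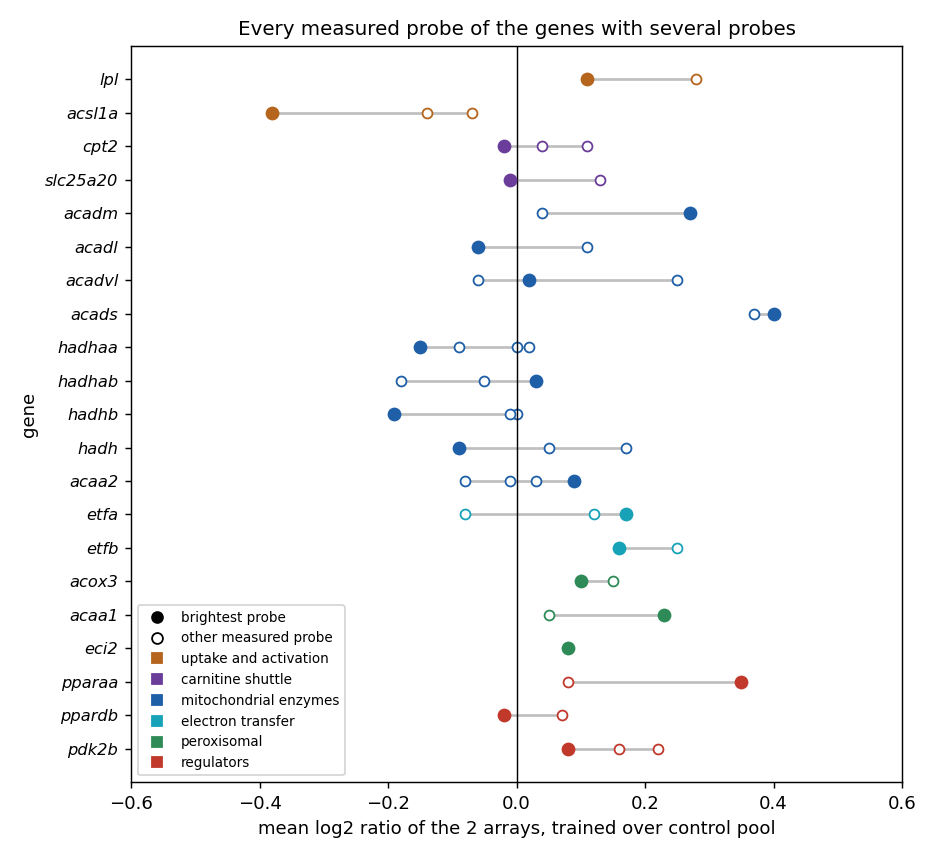
Mean log2 ratio of both arrays, trained over control (horizontal axis), of every measured probe of the 21 genes with several measured probes, with the brightest probe filled and the others open. The acads probes lie together at 0.37 and 0.40, whereas the probes of pparaa lie at 0.08 and 0.35.

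Of 62 measured probes for the 29 genes, 20 (32.3%) were higher in the trained pool on both arrays, against 22.9% of all measured probes; 5 (8.06%) were lower, against 23.2%, and 37 (59.7%) had opposite signs, against 53.9%. Among the 21 genes with several measured probes, 9 had every probe mean above 0, as did 26.7% of all such genes, and 2 (acsl1a and hadhb) had every probe mean below 0, as did 29.9%. The other 10 had probe means of both signs. A further 8 genes, among them cd36, etfdh and pdk4, rested on 1 measured probe.

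The peroxisomal genes had mean ratios above 0 in 3 of 3 cases, against 49.3% of all measured genes, and all 3 were small. The thiolase acaa1 had levels of 10.25 and 9.84 in the trained pool and 9.86 and 9.76 in the control pool, which overlapped between arrays. The acaa1 log2 ratios were 0.39 and 0.08 with a mean of 0.23, its other probe had -0.17 and 0.27, and the deposited ratios gave a mean of 0.12. The oxidase acox3, known in mammals for branched chains, had log2 ratios of 0.04 and 0.16, and 2 of its 4 probes were measured. The isomerase eci2, which shifts double bonds of unsaturated chains, had 0.24 and -0.08.

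Among the regulators, pparaa was higher in the trained pool on both arrays. It encodes a PPAR alpha, the nuclear receptor that turns on oxidation genes when fatty acids are plentiful. The levels were 8.94 and 8.75 in the trained pool and 8.63 and 8.38 in the control pool, without overlap. The log2 ratios were 0.31 and 0.38 with a mean of 0.35, or 1.27-fold higher in the trained pool. A second measured probe had -0.04 and 0.20, another was not well above background, and the mean over its measured probes was 0.21.

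The pyruvate dehydrogenase kinases spare glucose by holding back the entry of pyruvate. The levels of pdk4 were 7.47 and 7.43 in the trained pool and 7.21 and 7.31 in the control pool, without overlap, and its log2 ratios were 0.26 and 0.12 with a mean of 0.19. Under the deposited ratios the pdk4 mean was 0.34. For pdk2b the log2 ratios were 0.25 and -0.10, and all 3 of its probes were above 0 on array 1 and below 0 on array 2. The receptors pparab and ppardb had means of -0.06 and -0.02, both within the SD between probes.

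With the threshold lowered to 1.2-fold on both arrays, 2 of the 29 genes passed as higher, acads and pparaa, against 3.74% of all genes. None passed as lower, against 1.35% of all genes. On single arrays, hadh and acsl1a were over 1.5-fold lower in the trained pool on array 1, and acadm was over 1.5-fold higher on array 2. None of these 3 had the same sign on the other array. The share of all genes past 1.5-fold on a single array is not given, so these 3 are not set against all genes.

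**Figure D4:**
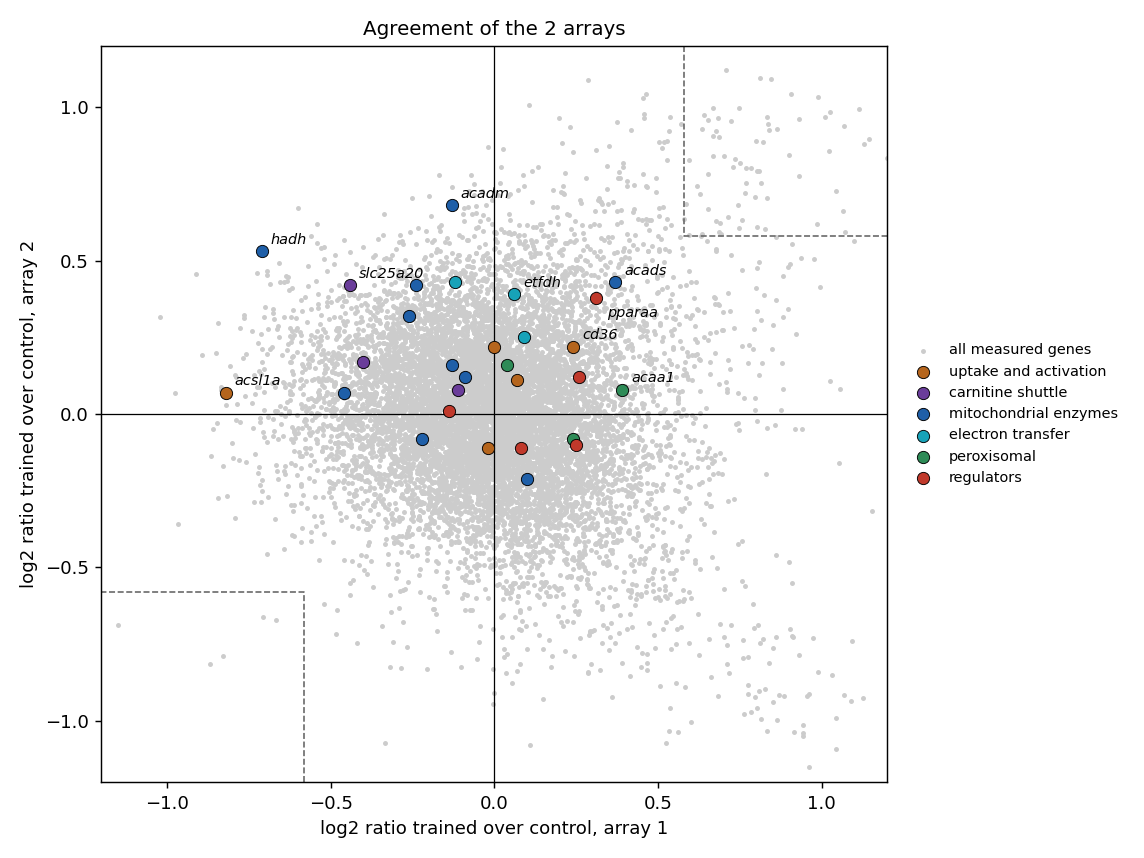
Log2 ratio of trained over control on array 1 (horizontal axis) against array 2 (vertical axis) for all measured genes in grey and the 29 fatty acid oxidation genes coloured by role; dashed lines mark 1.5-fold on both arrays, and 11 genes lie outside the plotted range. No coloured point lies inside the dashed corners, and 17 lie in the quadrants where the arrays have opposite signs.

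The arrays did not move together over these genes. Across the 29 genes the Pearson correlation of array 1 with array 2 was -0.20 (n = 29 genes that share the arrays), given as a description. The ratio of array 1 lay below that of array 2 in 21 of the 29 genes (72.4%), against 53.3% of all genes, so in these genes the log2 ratio of Cy5 over Cy3, averaged over the arrays, was below 0. Among the mitochondrial enzymes and electron transfer genes this held for 12 of 13 (92.3%) by their brightest probe, with acadl as the exception. Over all their measured probes it held for only 1 of 4 in hadhaa, 1 of 3 in hadh and 1 of 3 in acadvl. The gap between the arrays exceeded 0.5 in 9 genes (31.0%), against 18.4% of all genes.

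Over single probes, array 1 lay below array 2 in 42 of 62 (67.7%), against 51.9% of all measured probes. In 10 of the 21 genes with several measured probes, every probe had a lower ratio on array 1 than on array 2, as did 24.4% of all such genes. Only pdk2b had every probe the other way, as did 18.1% of all such genes. A dye effect that is equal on both arrays cancels in their mean. With 1 array per dye orientation, such an effect cannot be told apart from errors of labelling or array. In 9 of the 13 mitochondrial enzymes and electron transfer genes (69.2%) the arrays had opposite signs, against 53.6% of all genes. The origin of the difference between the arrays was not tested.

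**Figure D5:**
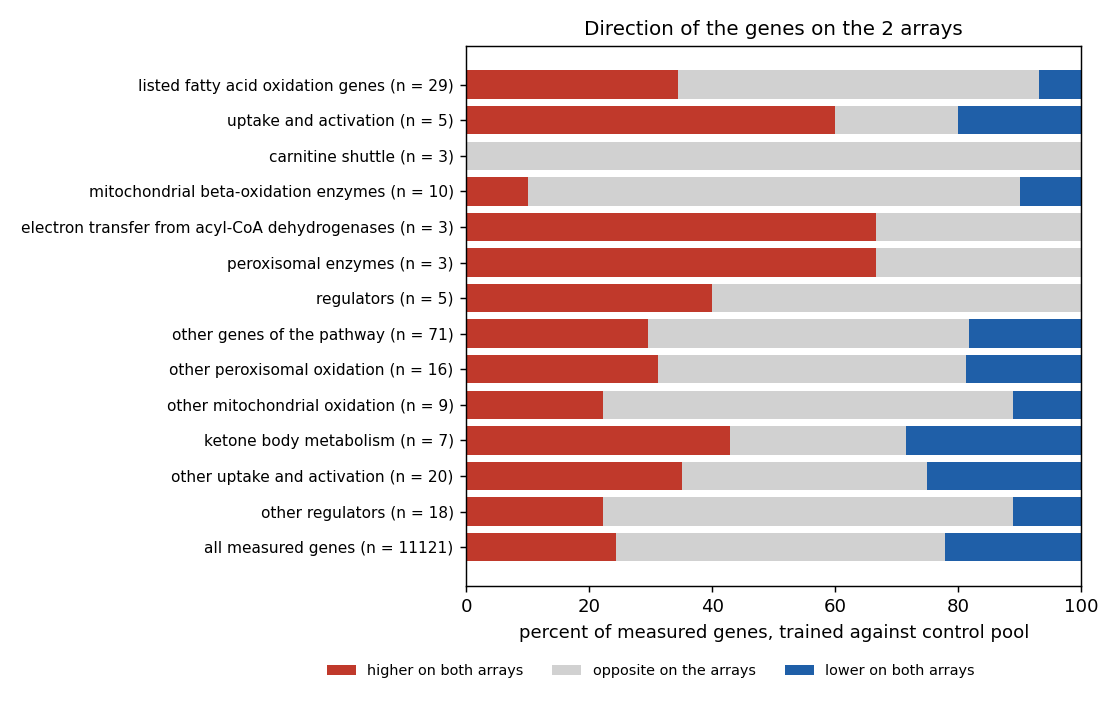
Share of genes (%) that were higher in the trained pool on both arrays, lower on both, or opposite on the arrays, for the fatty acid oxidation genes, the other genes of the pathway and all measured genes. The shares of the 29 genes are 34.5%, 6.9% and 58.6%, against 24.3%, 22.1% and 53.6% of all genes.

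Other genes of the pathway were taken from lists of further peroxisomal and mitochondrial enzymes, ketone body metabolism, uptake and activation, lipolysis and regulators. Of 107 listed genes 76 had a probe and 71 were measured. None of the 71 reached 1.5-fold on both arrays, against 0.638% of all genes higher and 0.054% lower, though fabp1a and fabp6 did under the deposited ratios. Among the 71 genes, 21 (29.6%) had the trained pool above the control pool on each array, against 24.3% of all genes. Another 13 (18.3%) had it below, against 22.1%, and 37 (52.1%) had opposite signs, against 53.6%. The median of the 71 mean log2 ratios was 0.04.

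Peroxisomal genes outside the main list had 5 members higher on both arrays, 3 lower and 8 opposite of 16, with a median of 0.12. The carnitine octanoyltransferase crot, which hands shortened chains on to mitochondria, had log2 ratios of 0.37 and 0.18. The thioesterase acot8, which releases fatty acids from coenzyme A, had -0.34 and -0.23 on its brightest probe, but its other probe had a mean of 0.15 and both averaged -0.07. Among 9 further mitochondrial genes the signs were positive on each array in 2 (22.2%), negative in 1 (11.1%) and mixed in 6 (66.7%). Of all genes 24.3%, 22.1% and 53.6% had these signs, and the median of the 9 genes was 0.06. The malonyl-CoA decarboxylase mlycd, which removes the inhibitor of carnitine palmitoyltransferase, had 0.47 and 0.08, with -0.04 as the mean of its other probe and a mean between 0.12 and 0.43 over the alternatives. The dehydrogenase acad8, of valine breakdown, had -0.25 and -0.05.

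Uptake and activation genes beyond the main list had 7 members higher on both arrays, 5 lower and 8 opposite of 20. The fatty acid binding protein gene fabp1a had levels of 8.72 and 8.56 in the trained pool and 7.92 and 8.15 in the control pool, without overlap. With log2 ratios of 0.80 and 0.41 its mean was 0.60, or 1.52-fold, and its other probe had a mean of 0.50. The brain type fabp7a had -0.00 and -0.91, so its mean of -0.46 came from array 2, and over its 3 probes the mean was -0.23. Past 1.2-fold on both arrays, 3 of the 71 genes were higher, against 3.74% of all genes: fabp1a, oxct1b and the intestinal bile acid binding protein gene fabp6, the last named after its values were seen.

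Of 18 further regulators, 4 (22.2%) had positive ratios on each array, against 24.3% of all genes, and 2 (11.1%) negative ones, against 22.1%. Mixed signs were found in 12 (66.7%), against 53.6%, and the median was -0.05. The retinoid X receptor rxraa, a partner of PPARs on DNA, had 0.21 and 0.45 with a mean of 0.33, which became 0.69 with a normexp offset of 0. The uncoupling protein gene ucp3 had -0.86 and -0.05. Of 6 lipolysis genes only the monoglyceride lipase mgll was measured, with -0.18 and 0.27, and it was named for that reason.

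Levels of tissue markers are given because the genes above are expressed in several of these tissues. The sums of some lists overlapped between the pools and those of others did not. The 8 measured heart markers of 8 summed to linear intensities of 9353 and 9516 in the trained pool and 7170 and 6817 in the control pool, and 5 were higher on both arrays, where 24.3% of all genes were. The 8 measured liver markers of 10 summed to 306303 and 307719 in the trained pool and 219994 and 251793 in the control pool, with 3 higher on both arrays and 2 lower, where 22.1% of all genes were lower. Linear sums are weighted to the brightest genes. The liver marker fabp10a had levels of 17.16 and 16.87 in the trained pool and 16.42 and 16.90 in the control pool. Its log2 ratios were 0.74 and -0.03. The 9 measured intestine markers of 10 summed to 165492 and 166322 in the trained pool and 151207 and 156570 in the control pool. Of these 9, 4 (44.4%) were higher on both arrays, against 24.3% of all genes, and 2 passed 1.5-fold, against 0.638%. For these lists the pools did not overlap.

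The sums of the muscle markers overlapped between the pools. The 11 fast muscle markers summed to 1211721 and 1072256 in the trained pool and 1129872 and 1381168 in the control pool. Of these 11, 0 were higher on both arrays and 2 (18.2%) lower, against 24.3% and 22.1% of all genes. Their median mean log2 ratio was -0.17, with 1 of 11 (9.09%) above 0, against 49.3% of all genes. On single arrays the median was 0.15 on array 1 and -0.37 on array 2. In 9 of the 11 (81.8%) the arrays had opposite signs, against 53.6% of all genes. The 9 slow muscle markers summed to 203725 and 168307 in the trained pool and 179589 and 173877 in the control pool. Of these 9, 2 (22.2%) were higher on both arrays and 0 lower, and 7 (77.8%) had mean log2 ratios above 0. The arrays had opposite signs in 7 of the 9 (77.8%), and the median was -0.08 on array 1 and 0.18 on array 2. Of 7 adipose markers 4 were measured, summing to 43724 and 44361 in the trained pool and 42713 and 45013 in the control pool, and plin1, adipoqa and lepa were not. The 5 measured brain markers of 7 summed to 9051 and 7785 in the trained pool and 7380 and 7393 in the control pool, without overlap. Of these 5, 4 (80.0%) were higher on both arrays, against 24.3% of all genes. The 4 measured erythroid markers of 6 summed to 161982 and 144484 in the trained pool and 143523 and 173797 in the control pool, which overlapped. Some genes stand in more than 1 list, such as tnni1b among heart and slow muscle markers and fabp10a among liver markers and uptake genes. The part of tissue makeup in the ratios of the fatty acid oxidation genes was not tested.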

How the data were processed

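Whole-larva RNA of a trained and a control pool was compared on 2 two-colour arrays. Per the file headers, the deposited scanner files hold median spot and background intensity for both dyes, other columns with flags, and the authors' log10 ratio of Cy5 over Cy3. Agilent Feature Extraction 10.5.1.1 was used, per the submitters' processing notes. The deposited series value table holds log10 ratios with the sign of array 2 turned. Median signals were used because the files hold no mean spot signals.

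Background was removed from the intensities by normexp (offset 50), and loess was fitted within each array (limma 3.58.1, R 4.3.3), with control and outlier spots at weight 0. Levels were scaled between arrays by Aquantile. The sign of array 2 was turned and the arrays were averaged. Probes were named by unversioned accession through a RefSeq gene table, 25173 of 43603, and no coordinates are given since the array's build differs from that table's. Later steps used Python 3.11.15, numpy 2.4.6 and pandas 2.3.3. The size rule was tested on simulated data, where ratios came out closer to 0 than simulated. A gene that misses the rule may therefore still differ 1.5-fold. Both simulated arrays were given the same dye effect, with noise taken from the spread between spots of a probe. The disagreement between the real arrays was not simulated.

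Every gene of the main list is accounted for by name. Of the other pathway lists, genes passing 1.5-fold were to be named, and otherwise the highest and the lowest of 1 sign on both arrays. Members and lists were chosen with earlier results of these data known. Alternatives changed background correction, normalisation, probe filter, probe summary and threshold, used the deposited ratios, or left out 1 array.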

Additional observations from a re-analysis of the deposited data

How the results depend on the processing

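No paired analysis was possible because both arrays carry the same RNA, with 1 pool per condition. Over 8 alternatives that used both arrays, the number of fatty acid oxidation genes past 1.5-fold stayed at 0, and 21 of 29 genes kept the sign of their mean, while cpt2, slc25a20, acadl, hadhab, hadh, ppardb, fabp3 and acsl1b turned in at least 1. Only 5 of the 8 gave values of their own: both filters on dim probes left the ratio of every named gene as it was, and the value table repeats the deposited ratios. The count of listed genes higher on both arrays, 10 in the main processing, was 9 without background correction or under median centring. It was 12 under the deposited ratios or the series value table and 13 under the mean over probes. Genes lower on both arrays numbered 0 under median centring and 1 under the deposited ratios, the series value table or the mean over probes. Other pathway genes at least 1.5-fold higher numbered 1 under median centring (fabp1a) and 2 under the deposited ratios or the value table (fabp1a and fabp6). At 1.2-fold the higher counts were 2 for the list and 3 for other pathway genes. With 1 array left out, list genes past 1.5-fold numbered 0 to 1 higher (acadm on array 2) and 0 to 2 lower (hadh and acsl1a on array 1). Those above 0 numbered 14 to 23, those below 0 numbered 6 to 15, and the median ran between -0.02 and 0.16; other pathway genes past the rule numbered 0 to 3 higher and 1 to 2 lower. Leaving the sign of array 2 unturned, as the design text reads and chosen after seeing the data, gave 4 genes higher, 13 lower and a median of -0.08. Except at 1.2-fold, where the shares are given above, these counts are not set against all genes under the same alternative. The median of the mean log2 ratios of all genes was 0.04 under median centring, against 0.00 in the main processing. For these counts the cause was not tested. With 1 pool per condition, the spread between fish is unknown, and 5 of 67 probes of the listed genes were not well above background and were not read.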

Other observations

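Ketone body metabolism makes and burns a fuel derived from fatty acids. Of 7 measured genes of 8 listed, 3 (42.9%) were higher in the trained pool on both arrays, 2 (28.6%) lower and 2 (28.6%) opposite. The median was 0.13, and the shares of all genes were 24.3%, 22.1% and 53.6%. The succinyl-CoA transferase oxct1b, which lets tissues use ketone bodies, had levels of 11.12 and 11.28 in the trained pool and 10.73 and 10.83 in the control pool, without overlap. Its log2 ratios were 0.38 and 0.45, and 3 of its 3 measured probes were higher on both arrays, with means between 0.41 and 0.56. Its paralog oxct1a, named after its values were seen, had 0.19 and 0.30, and 3 of its 4 measured probes were higher on both arrays. The near-identity of the pair was not examined, so some probes may report both. On the synthesis side, hmgcs1, which also serves cholesterol synthesis, had -0.25 and -0.09, with all 4 probe means between -0.17 and -0.10. No test was possible for any of these values.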
